A study of Homo sapiens with 6 samples.

Results

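Small nucleolar RNA host genes are described here in U87 cells, an established human glioma line, with and without knockdown of PCGF1. They were taken as every gene whose symbol is SNHG followed by a number and that has at least 1 probe set annotated with that symbol alone. The rule uses names only and gave 10 of the 18132 genes measured, read by 15 probe sets. The family itself was chosen by a reading of earlier results of the same comparison, knockdown against control, so the differences of its members, and the counts of members past a threshold, are given as a description and not as tests of the family.

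Expression was measured on 6 Affymetrix arrays. In the PCGF1 shRNA group, 3 arrays read RNA of U87 cells that had received a lentiviral hairpin (shRNA) directed at PCGF1. In the NC group, 3 arrays read RNA of U87 cells that had received the negative control virus. Both cultures grew in DMEM with fetal bovine serum. The sample names carry T0 in every shRNA array and T1 in every NC array without explaining them, so T0, T1 and the knockdown cannot be told apart. The labels call the arrays biological replicates but name no separate cultures, so the spread and the p-values measure these samples only and may be partly technical. A single cell line was used, and the hairpin sequence is not given in the sources used here.

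A small nucleolar RNA (snoRNA) guides the chemical modification of ribosomal and spliceosomal RNA. Box C/D snoRNAs (SNORD) direct methylation of the ribose and box H/ACA snoRNAs (SNORA) direct conversion of uridine to pseudouridine. In human cells nearly all of them are cut out of the introns of a host gene. The host can code for a protein of the ribosome or the nucleolus, or can be non-coding, as in the SNHG family, where the introns hold the snoRNAs and the spliced exons form a long non-coding RNA. Several such transcripts start with a stretch of pyrimidines, as the mRNAs of ribosomal proteins do, and their spliced RNA is often broken down by nonsense-mediated decay. PCGF1 is the RING finger subunit of the repressive chromatin complex PRC1.1.

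All values are RMA signals on the log2 scale, with the 6-array median of each probe set taken as 0. They show differences between arrays and hold no absolute level, so SNHG genes cannot be ordered by abundance. The array number limits the precision. PCGF1 was lower in each shRNA array than in each NC array, with a log2 difference of -0.43 ± 0.06 (SE, n = 3 arrays a group, limma adjusted p = 0.00410). By an exact two-sided permutation of the array labels p was 0.1, and 3 against 3 arrays allow no smaller p. Array medians over all probe sets lay between -0.0024 and 0.0040, and the excess of 3′ over 5′ signal in the ACTB control probe sets was 0.078 ± 0.043 (SE) larger in the shRNA group with overlapping ranges, a difference whose part in the results was not tested. Centred values cannot show whether a defining marker of glioma or of another cell type was absent. Among 14 measured markers of glia, leukocytes, epithelium and endothelium, limma called 0 at an adjusted p under 0.05. At an unadjusted p under 0.05 it had EPCAM higher and PECAM1 lower, and over all 18132 genes 2575 higher and 2241 lower.

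Of the 10 SNHG genes, 9 had a lower mean in the shRNA arrays, and for 7 every shRNA array lay below every NC array. SNHG1 and SNHG12 had the largest differences, at 81.3% and 82.9% of the control signal. SNHG32 followed at 90.2%, and the other 7 lay between 92.4% and 101%. The median log2 difference of the 10 genes was -0.096, against -0.0081 for all 18132 genes. Limma called 3 of the 10 lower at an adjusted p under 0.05 and 0 higher, against 4.63% of all genes called lower and 6.36% called higher. At an unadjusted p under 0.05, 3 were lower and 0 higher, against 2241 and 2575 of all 18132 genes. Over all genes, 53.4% had a negative difference. All 3 shRNA arrays lay below all 3 NC arrays in 15.5% of genes and above them in 17.1%. Because this contrast led to the choice of the family, nothing is read from these counts. In RNA from a whole culture, less RNA per cell and fewer cells with the transcript cannot be told apart.

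SNHG1, also called UHG, is the host of box C/D snoRNAs. Its log2 signal was -0.10, -0.32 and -0.14 in shRNA arrays 1 to 3 and 0.11, 0.13 and 0.10 in NC arrays 1 to 3. The NC arrays lay close together, while shRNA array 2 stood well below the other two. The shRNA mean was -0.19 ± 0.12 and the NC mean 0.11 ± 0.014 (SD, n = 3), for a log2 difference of -0.30 ± 0.06 (SE). Without shRNA array 2 it was -0.23.

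SNHG12 is the host of 3 box H/ACA snoRNAs and 1 box C/D snoRNA. Its log2 signal was -0.20, -0.096 and -0.18 in the shRNA arrays and 0.12, 0.13 and 0.096 in the NC arrays. Here shRNA array 2 was the highest of its group, unlike in SNHG1, and the groups were well apart. The shRNA mean was -0.16 ± 0.05 and the NC mean 0.11 ± 0.016 (SD, n = 3). The log2 difference was -0.27 ± 0.04 (SE), and it stayed between -0.30 and -0.25 when any 1 array was left out. SNHG32, earlier named C6orf48 and located in the major histocompatibility complex region, had -0.047, -0.080 and -0.096 in the shRNA arrays against 0.069, 0.047 and 0.11 in the NC arrays. Its groups did not overlap, and the log2 difference was -0.15 ± 0.04 (SE). These were the 3 genes past the threshold, with SNHG32 the closest to it. SNHG32 missed the threshold when any 1 array was left out, with its most variable probe set and with a block for replicate number. SNHG1 missed it when NC array 1, 2 or 3 was left out, and SNHG12 passed it in each of these settings.

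**Figure D1:**
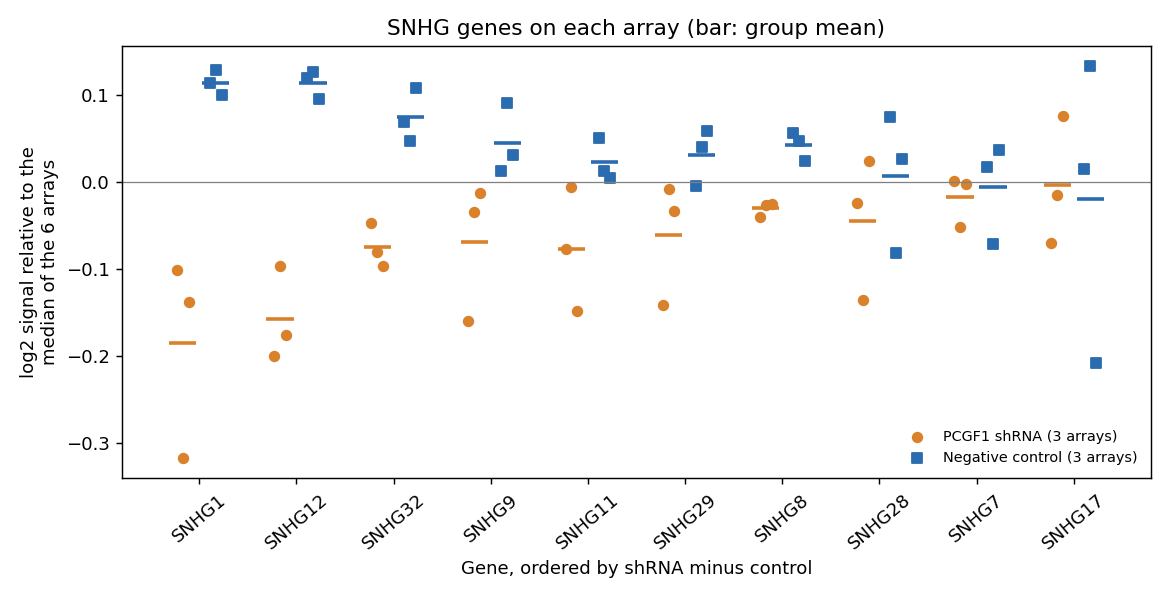
The plot gives the log2 signal, with each probe set's 6-array median as 0 (vertical axis), for each SNHG gene, with circles for the 3 shRNA arrays, squares for the 3 NC arrays and bars for group means. SNHG1 and SNHG12 have the widest gap between the groups, with log2 differences of -0.30 and -0.27, and in SNHG28, SNHG7 and SNHG17 the groups overlap.

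The promoters of the genes with the largest differences are shown with that of SNHG7, to let their start sites be compared. The mean difference of SNHG7 was near 0, but it averages probe sets that disagreed, at -0.12 and 0.099. Each run holds 250 bases before and 50 bases from the annotated start, taken from RefSeq on GRCh38.p14, 5′ to 3′ on the strand of the gene. Capitals mark the first 10 transcribed bases and any match to the E-box CACGTG or to TATAAA on either strand (TTTATA when read on the other strand). The positions are chr11:62855836-62856135, minus strand, for SNHG1, chr1:28581824-28582123, minus strand, for SNHG12, chr6:31834666-31834965, plus strand, for SNHG32, and chr9:136728135-136728434, minus strand, for SNHG7.
SNHG1: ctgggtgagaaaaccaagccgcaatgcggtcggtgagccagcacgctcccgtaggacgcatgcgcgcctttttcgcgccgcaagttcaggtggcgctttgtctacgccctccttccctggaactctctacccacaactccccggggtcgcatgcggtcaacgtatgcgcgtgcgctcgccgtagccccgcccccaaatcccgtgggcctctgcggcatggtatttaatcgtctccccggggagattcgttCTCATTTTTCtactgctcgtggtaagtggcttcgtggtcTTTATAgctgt
SNHG12: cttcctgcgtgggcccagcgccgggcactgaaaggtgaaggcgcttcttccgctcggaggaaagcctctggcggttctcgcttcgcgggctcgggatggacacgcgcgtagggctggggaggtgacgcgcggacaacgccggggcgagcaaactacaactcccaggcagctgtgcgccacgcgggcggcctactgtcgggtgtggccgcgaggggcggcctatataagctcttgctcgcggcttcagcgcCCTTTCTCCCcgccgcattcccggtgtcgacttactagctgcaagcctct
SNHG32: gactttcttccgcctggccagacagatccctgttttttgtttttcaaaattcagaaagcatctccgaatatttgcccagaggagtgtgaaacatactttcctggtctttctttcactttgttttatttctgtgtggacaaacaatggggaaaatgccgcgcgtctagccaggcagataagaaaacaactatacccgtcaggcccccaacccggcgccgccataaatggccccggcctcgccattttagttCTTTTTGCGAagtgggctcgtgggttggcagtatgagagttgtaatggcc
SNHG7: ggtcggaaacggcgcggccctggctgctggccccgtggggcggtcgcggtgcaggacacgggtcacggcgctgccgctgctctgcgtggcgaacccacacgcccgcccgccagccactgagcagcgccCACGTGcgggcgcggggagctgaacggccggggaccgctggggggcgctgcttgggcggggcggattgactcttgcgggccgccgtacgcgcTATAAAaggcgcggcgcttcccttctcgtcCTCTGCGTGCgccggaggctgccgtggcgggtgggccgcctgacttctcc
In SNHG12 all of the first 10 transcribed bases were C or T, in SNHG1 90% and in SNHG32 and SNHG7 70%. SNHG1, SNHG12, SNHG32 and SNHG7 all start with C at the annotated position. For the 9 SNHG genes with a RefSeq promoter (none was matched for SNHG9) the share of C and T ranged from 30% in SNHG29 to 100% in SNHG12, with a median of 70%, against a median of 50% over 27305 promoters of the same length. The E-box CACGTG occurred in SNHG7 alone, or 11.1% of the 9, against 7.43% of all promoters. TATAAA on either strand occurred in SNHG1, SNHG7 and SNHG11, or 33.3%, against 12.0% of all promoters. Only exact matches were counted, so near matches such as tatata in SNHG12 were left out. The TATAAA match in SNHG7 began at position -30 from the start on the sense strand. The matches in SNHG1, at transcribed base 40, and in SNHG11, at position -231, were on the other strand. The median number of CG pairs was 28, against 14 over all promoters. The letters are a description of the windows and say nothing of which factors act there.

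The other members had smaller differences. SNHG9, a short host with 1 box H/ACA snoRNA, had -0.16, -0.035 and -0.013 in the shRNA arrays and 0.013, 0.091 and 0.031 in the NC arrays. The groups did not overlap, and shRNA array 1 lay far below the other two. The log2 difference was -0.11 ± 0.05 (SE), and without shRNA array 1 it was -0.069. SNHG11 hosts 2 box H/ACA snoRNAs, and its log2 signal was -0.076, -0.0051 and -0.15 against 0.051, 0.012 and 0.0051. Its groups touched without overlapping, since shRNA array 2 and NC array 3 were close to each other. The log2 difference was -0.10 ± 0.05 (SE), and without shRNA array 3 it was -0.064. SNHG8, host of a single box H/ACA snoRNA, had the tightest shRNA group, with -0.040, -0.026 and -0.025 against 0.056, 0.048 and 0.025. The groups were separate but close, with a log2 difference of -0.073 ± 0.036 (SE).

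SNHG29, formerly LRRC75A-AS1, hosts 3 box C/D snoRNAs. Its averaged signal was -0.14, -0.0078 and -0.033 in the shRNA arrays and -0.0046, 0.040 and 0.059 in the NC arrays, with a log2 difference of -0.092 ± 0.047 (SE), or -0.052 without shRNA array 1. The groups did not overlap on average, but NC array 1 was below 0 and only just above shRNA array 2. In SNHG28, SNHG7 and SNHG17 the groups overlapped. SNHG28, also called C1orf204, had -0.024, -0.13 and 0.024 against 0.075, -0.082 and 0.026, a log2 difference of -0.052 ± 0.058 (SE). Without shRNA array 2, the lowest of the 6, it was -0.0066. SNHG17, host of SNORA71 snoRNAs, had a wide spread in the NC group, with -0.069, -0.015 and 0.076 against 0.015, 0.13 and -0.21. Its log2 difference was 0.017 ± 0.084 (SE), the sole positive mean, and it ranged from -0.077 to 0.093 when 1 array was left out.

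At the level of probe sets, 13 of 15 had a negative difference and 11 had every shRNA array below every NC array, which held for 13.8% of all 49293 probe sets tested. Limma called 3 of the 15 lower, against 2.94% of all probe sets, namely the probe set of SNHG1 and both of SNHG12. Probe sets ending in _x_at or _s_at, 6 of the 15, can hold probes that match other transcripts, and 8 end in _a_at, for several transcripts of 1 gene. For 6 genes the value rests on 1 probe set. That of SNHG9 ends in _s_at and that of SNHG11 in _x_at, so these genes drop out when such probe sets are omitted. The pair for SNHG12 gave log2 differences of -0.28 ± 0.05 and -0.26 ± 0.05 (SE). Both are annotated to the same gene and were read on the same arrays, so the pair is not independent. For SNHG32 the values were -0.13 and -0.17.

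The probe sets of SNHG7 disagreed. In 11755133_x_at the shRNA arrays had -0.031, -0.091 and -0.088 and the NC arrays 0.068, 0.031 and 0.062, a separation with a log2 difference of -0.12 ± 0.05 (SE). In 11754956_at they had 0.033, -0.012 and 0.083 against -0.032, -0.17 and 0.012, which overlap, with a log2 difference of 0.099 ± 0.062 (SE). The average of both, -0.012 ± 0.044 (SE), therefore describes neither. It was -0.045 without NC array 2, 0.0045 without shRNA array 2 and 0.0087 without NC array 3, so its sign changed with the array left out. The 3 probe sets of SNHG29 all had negative differences, at -0.046, -0.074 and -0.16. The last, 11757192_a_at, was also the most variable, since shRNA array 1 had -0.34 and NC array 1 -0.076.

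**Figure D2:**
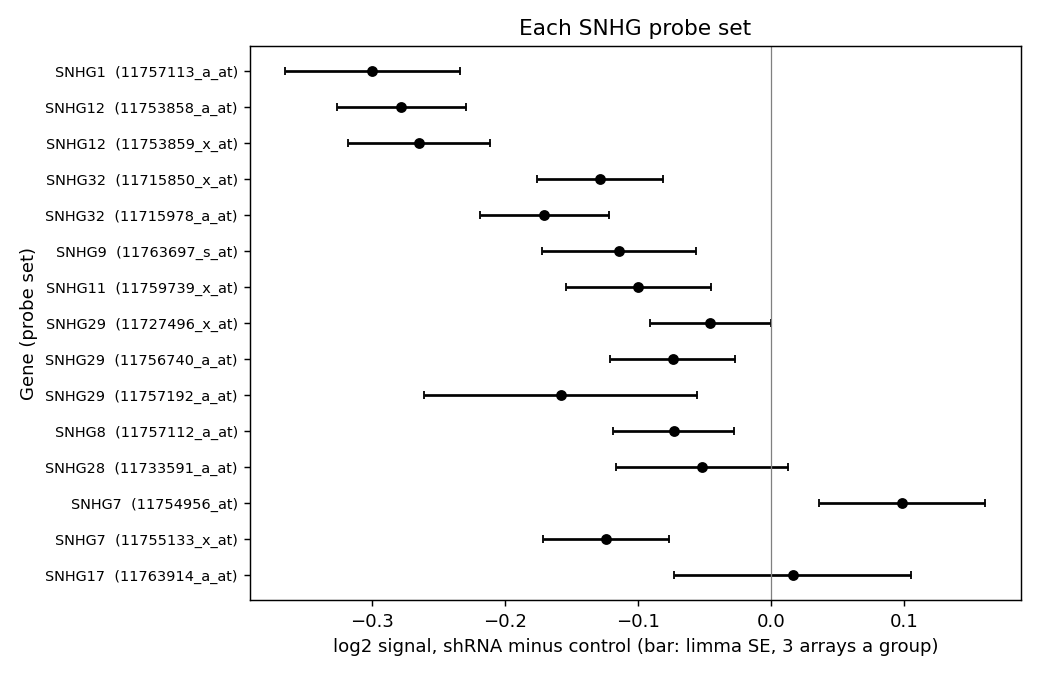
The plot gives the log2 signal of the shRNA minus the NC arrays for each of the 15 SNHG probe sets (points, with limma SE as bars), grouped by gene. The pair for SNHG12 lies at -0.28 and -0.26, whereas the pair for SNHG7 lies on both sides of 0, at -0.12 and 0.099.

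Members differed in which array was extreme. Among the shRNA arrays, array 1 was the lowest for 5 genes, array 2 for 3 and array 3 for 2. The median over the 10 genes was -0.073, -0.043 and -0.029 in shRNA arrays 1 to 3 and 0.054, 0.047 and 0.034 in NC arrays 1 to 3. On this summary the groups were separate, and no array of either group crossed 0. Centring places the 2 middle arrays of a probe set at equal distances from 0, so the sign of single values follows in part from the order of the arrays. The 5 genes outside the family closest to SNHG1 by root mean square difference over the 6 arrays were RGS17 (0.027), BDKRB1 (0.041), NAB1 (0.041), CCDC152 (0.041) and C16orf87 (0.042). Within the family, SNHG12 (0.10) and SNHG32 (0.11) were the closest to SNHG1, at ranks 531 and 756 of 18131 genes, and SNHG17 (0.20) was the farthest, at rank 12154.

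Inside the 10 hosts the RefSeq gene table places 30 snoRNA genes, 14 of them SNORD, 13 SNORA and 3 without a family symbol. Their number ranges from 1 in SNHG8, SNHG9 and SNHG28 to 9 in SNHG1. A probe set of its own was present for 5 of these snoRNAs. SNORA78, inside SNHG9, had a log2 difference of -0.19 ± 0.07 (SE), and SNORA60, inside SNHG11, of 0.17 ± 0.08. For SNORA71A, SNORA71C and SNORA71D, inside SNHG17, the values were 0.10 ± 0.24, 0.012 ± 0.086 and -0.087 ± 0.062. In all 5 the groups overlapped, and none passed limma at an adjusted p under 0.05 (adjusted p 0.126 to 0.950). Whether such a probe set reads the mature snoRNA or the intron of its host was not tested.

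All genes annotated as snoRNAs or as small Cajal body RNAs (scaRNAs), the guides for spliceosomal RNA, had mostly small differences. Here too, whether their probe sets read the mature RNA or the RNA of a host gene was not tested. Of 48 such genes 2 were called lower and 1 higher, no more than the 4.63% and 6.36% of all genes would give, with a median of -0.051. At an unadjusted p under 0.05, 11 were lower and 2 higher, against 2241 and 2575 of all 18132 genes. SCARNA14 fell by 0.34 (SE 0.05, limma adjusted p = 0.00679), with both of its probe sets lower. SNORA33, a snoRNA of the ribosomal protein gene RPS12, fell by 0.29 (SE 0.05, limma adjusted p = 0.00853). SNORA16B rose by 0.51 ± 0.07 (SE, limma adjusted p = 0.00487). Its log2 signal was 0.19, 0.22 and 0.16 in the shRNA arrays and -0.46, -0.16 and -0.33 in the NC arrays, so the groups were well separated. The value rests on 1 probe set. These 3 calls were kept in all 12 alternatives run for each.

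Non-coding hosts outside the SNHG names were measured for 2 of the 4 genes listed, ZFAS1 and EPB41L4A-AS1. Limma called 0 of the 2. Both had an unadjusted p under 0.05 on the lower side, as did 2241 of all 18132 genes. EPB41L4A-AS1 was at -0.21 ± 0.07 (SE, limma adjusted p = 0.0835), with shRNA array 1 at -0.29 and array 2 at -0.018. Without shRNA array 2 its adjusted p was 0.0318, the only pass among its 11 alternatives. EPB41L4A-AS1 rests on 1 probe set, 11744369_s_at, of a type that can match other transcripts. ZFAS1, host of SNORD12 snoRNAs and antisense to the start of ZNFX1, was at -0.13 ± 0.05 (SE, limma adjusted p = 0.111), an average over probe sets that opposed each other. Its 3 probe sets 11744365_a_at, 11744366_a_at and 11757773_x_at had log2 differences of -0.33, -0.24 and -0.29, all with separate groups. The fourth, 11759550_at, had 0.22, 0.13 and 0.13 in the shRNA arrays against -0.20, -0.20 and -0.13 in the NC arrays, a log2 difference of 0.33. Over all probe sets limma called each of the first 3 lower and the last higher (adjusted p 0.0112 to 0.0492).

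Hosts that code for proteins were counted apart. All the gene lists set beside the family were chosen with earlier results of these data known. Their counts are a description and not tests. Of 45 measured of 51 listed, 9 were called lower and 0 higher, against 4.63% and 6.36% of all genes, with a median of -0.073. At an unadjusted p under 0.05, 16 were lower and 1 higher, against 2241 and 2575 of all 18132 genes. NOP58, a core protein of box C/D particles, had -0.17, -0.12 and -0.15 in the shRNA arrays and 0.18, 0.11 and 0.13 in the NC arrays and fell by 0.29 (SE 0.04, limma adjusted p = 0.00465). DKC1, the pseudouridine synthase of box H/ACA particles, fell by 0.27 (SE 0.04, limma adjusted p = 0.00717). Both calls were kept in all 12 alternatives. WDR43, a nucleolar protein of early ribosome assembly, fell by 0.24 (SE 0.05, limma adjusted p = 0.0155). That call was lost without shRNA array 3, without NC array 2 or 3 and with a block for replicate number (adjusted p up to 0.0593). The 18 ribosomal protein genes among the hosts had a median of -0.055. Limma called 0 of them, and 3 were lower at an unadjusted p under 0.05, against 2241 of all 18132 genes. The 27 other hosts held all 9 called genes, against 4.63% of all genes called lower, and had a median of -0.11. Whether the 2 kinds of host differ was not tested.

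The proteins that bind snoRNAs were measured in full. Of the 8 core proteins of both particle types 3 were called lower and 0 higher, against 4.63% and 6.36% of all genes, with a median of -0.11. At an unadjusted p under 0.05, 6 were lower and 0 higher, against 2241 and 2575 of all 18132 genes. The 3 called, NOP58, DKC1 and NOP56, are themselves snoRNA hosts and are counted in both lists. NOP56, the partner of NOP58, fell by 0.19 (SE 0.04, limma adjusted p = 0.0263), with all 4 probe sets lower. All 4 drop out when _s_at and _x_at probe sets, which can match other transcripts, are omitted. The call was lost when any 1 array other than shRNA array 2 was left out (adjusted p up to 0.0921). It was also lost with the most variable probe set and with a block for replicate number. SNU13, which binds the kink-turn of box C/D snoRNAs, was at 0.076 ± 0.038 (SE, limma adjusted p = 0.246) and is named after its value was seen, as the member with a positive value. Of 12 assembly factors 1 was called lower and 0 higher, which is near the 4.63% and 6.36% of all genes for so short a list, with a median of -0.080. At an unadjusted p under 0.05, 4 were lower and 0 higher, against 2241 and 2575 of all 18132 genes. NOLC1, a nucleolar chaperone of these particles, fell by 0.23 (SE 0.04, limma adjusted p = 0.0137), and without NC array 3 its adjusted p was 0.0510.

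Genes that free snoRNAs from the intron and trim them gave a median of -0.13. Of 8 measured, 3 were called lower and 0 higher, against 4.63% and 6.36% of all genes. At an unadjusted p under 0.05, 5 were lower and 0 higher, against 2241 and 2575 of all 18132 genes. DBR1, the enzyme that opens the intron lariat, had -0.062, -0.088 and -0.064 in the shRNA arrays and 0.28, 0.30 and 0.062 in the NC arrays. NC array 3 was thus far closer to the shRNA group than the other two. DBR1 fell by 0.29 (SE 0.07, limma adjusted p = 0.0297), a call lost when any 1 array other than NC array 3 was left out (adjusted p up to 0.0917). The DBR1 call was also lost with the most variable probe set and with a block for replicate number. XRN2, a nuclear 5′ exonuclease, fell by 0.27 (SE 0.05, limma adjusted p = 0.0130) with all 6 probe sets lower. Its adjusted p was 0.0507 without shRNA array 3 and 0.0610 for its most variable probe set. EXOSC10, a nuclear exosome nuclease, fell by 0.21 (SE 0.05, limma adjusted p = 0.0244). The EXOSC10 call was lost when any 1 array other than shRNA array 3 was left out (adjusted p up to 0.0833). A block for replicate number also lost it.

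Nonsense-mediated decay genes, which act on several spliced SNHG transcripts, had a median of 0.049. Of 11 measured, 1 was called higher and 1 lower, near the 6.36% and 4.63% of all genes for a list of this length. UPF1, the helicase of this pathway, rose by 0.15 ± 0.04 (SE, limma adjusted p = 0.0405), a call that no omission of a single array kept (adjusted p 0.0642 to 0.128). The UPF1 call was also lost with the most variable probe set, without _s_at and _x_at probe sets and with a block for replicate number. MAGOH, a subunit of the exon junction complex, fell by 0.26 (SE 0.06, limma adjusted p = 0.0258). That call was lost without NC array 1, 2 or 3 and with the most variable probe set (adjusted p up to 0.0797). Genes listed as regulators or binders of mRNAs with a pyrimidine start had a median of 0.0080. Of these 11, 1 was called higher and 1 lower, likewise near the shares of all genes. EIF4EBP2, which represses cap-dependent translation by binding the cap-binding protein eIF4E, rose by 0.33 ± 0.06 (SE, limma adjusted p = 0.0152). Its adjusted p was 0.0542 without shRNA array 3, 0.0502 without NC array 2, 0.282 for its most variable probe set and 0.245 with the _s_at and _x_at probe sets left out. CNBP, a zinc finger protein that binds such starts, fell by 0.17 (SE 0.04, limma adjusted p = 0.0383). Its call was lost when any 1 array other than shRNA array 2 was left out (adjusted p up to 0.119). The most variable probe set, omission of _s_at and _x_at probe sets and a block for replicate number also lost it.

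**Figure D3:**
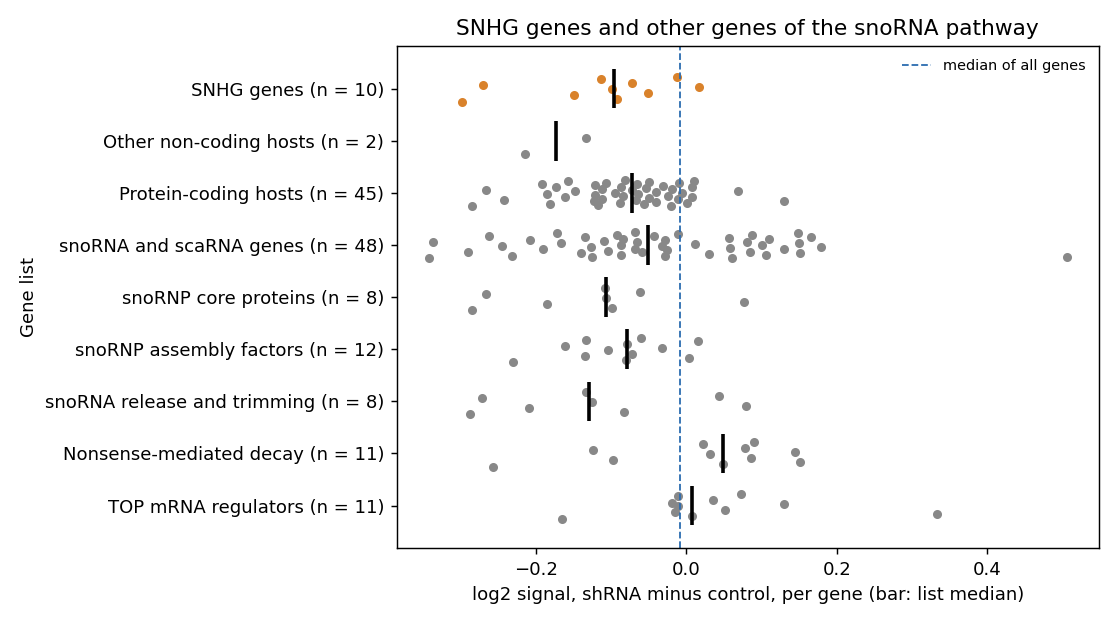
The plot gives the log2 difference, shRNA minus NC, of each measured gene (points) by list, with a bar for the list median and a dashed line for the median of all genes at -0.0081. The SNHG median is -0.096, the release and trimming genes have a median of -0.13, and the nonsense-mediated decay genes have a median of 0.049.

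Protein-coding genes that overlap an SNHG gene or lie next to it in RefSeq were compared beside it. Of 25 such neighbours 23 were measured, and limma called 1 lower and 1 higher, near the 4.63% and 6.36% of all genes. Their median log2 difference was -0.0082. SLC3A2, the heavy chain of several amino acid transporters, lies on the 5′ side of SNHG1 on the opposite strand and was at -0.13 ± 0.04 (SE, limma adjusted p = 0.0918). WDR74, on the 3′ side of SNHG1, was at -0.11 ± 0.05. TRNAU1AP overlaps SNHG12 on the opposite strand and was at -0.089 ± 0.039, and RCC1, also next to SNHG12, was at -0.030 ± 0.084. RAB42, on the 5′ side of SNHG12, was at -0.17 ± 0.06 with overlapping groups. All 5 of these values were closer to 0 than that of the SNHG gene beside them, and the differences were not tested. Whether the probe sets of SNHG12 and TRNAU1AP share any signal where the genes overlap was not tested.

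NEU1, a lysosomal sialidase on the 3′ side of SNHG32, rose by 0.33 ± 0.04 (SE, limma adjusted p = 0.00168) where SNHG32 was at -0.15, and its call was kept in all 12 alternatives. HSPA1B, a heat shock protein gene on the 5′ side of SNHG32, was at 0.16 ± 0.05 (limma adjusted p = 0.0916). TRPV2, a cation channel gene next to SNHG29, fell by 0.21 (SE 0.05, limma adjusted p = 0.0411). Its call was lost when any 1 array other than shRNA array 2 was left out (adjusted p up to 0.126 over all alternatives). It was also lost without _s_at and _x_at probe sets and with a block for replicate number. CFAP45, on the 5′ side of SNHG28, was at -0.34 ± 0.09 (limma adjusted p = 0.0510). RPS2, a ribosomal protein gene and snoRNA host next to SNHG9, was at -0.057 ± 0.038. SLC3A2, WDR74, TRNAU1AP, RCC1, RAB42, HSPA1B, CFAP45 and RPS2 were chosen after their values were seen.

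**Figure D4:**
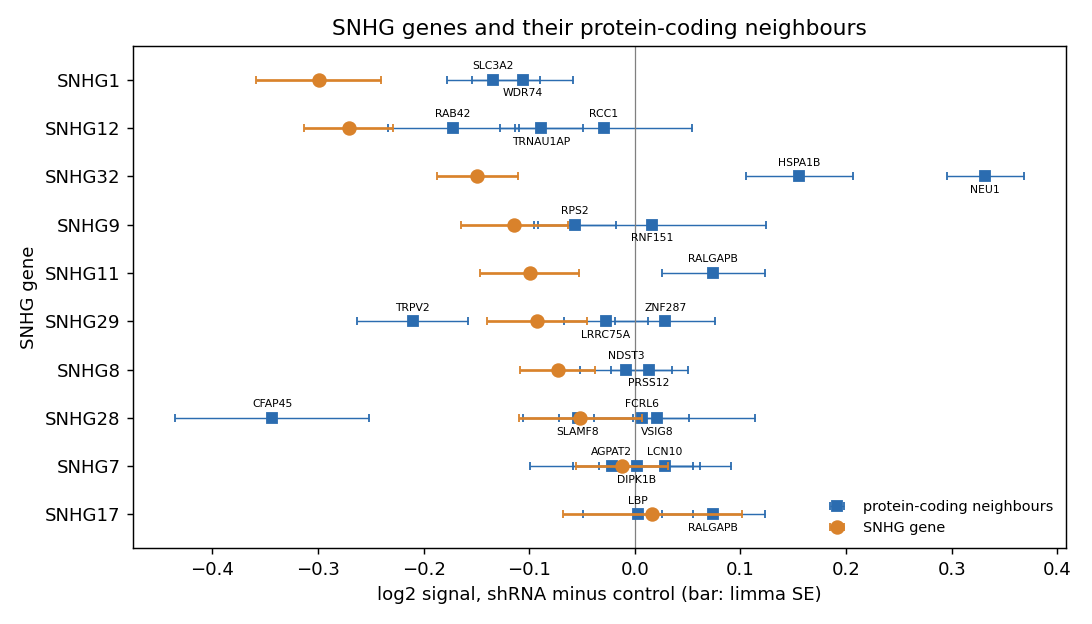
The plot gives the log2 difference, shRNA minus NC, of each SNHG gene (circles) and its measured protein-coding neighbours (squares), with limma SE as bars. NEU1, at 0.33, and SNHG32, at -0.15, lie on opposite sides of 0, and SLC3A2 and WDR74 lie between SNHG1 and 0.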

How the data were processed

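Expression in U87 cells was read on 6 Affymetrix arrays, 3 with PCGF1 shRNA and 3 negative controls. RMA was the method of the authors, per the submitters' processing notes (version not given in the sources used here), and the deposited values are taken as log2 on that basis, since the log base is not recorded. The values show that each probe set was also centred on the median of its 6 arrays (largest departure 4.85e-07), so dim probe sets could not be filtered.

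Of 49395 probe sets, 102 controls were left out and 49293 tested. In GEO's platform annotation 44988 had 1 gene symbol, 1832 several and 2473 none. A gene's value was the mean of its single-symbol probe sets (18132 genes). The groups were compared two-sided with eBayes after lmFit (limma 3.58.1, R 4.3.3; tested on simulated data), with Benjamini-Hochberg adjustment over all genes and calls at an adjusted p under 0.05.

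The SNHG members and the lists were chosen with earlier results of these data known. Genes named are all SNHG genes, PCGF1, of each list the 3 called members with the largest rise and fall (the 2 largest differences where none was called), called neighbours, and the 5 genes closest to the SNHG gene with the largest difference. Gene positions and promoters come from RefSeq. Alternatives were quantile normalization, median centring, array weights, a replicate block, the most variable probe set of a gene, omission of _s_at and _x_at probe sets, probe sets without averaging and omission of each array.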

Additional observations from a re-analysis of the deposited data

How the results depend on the processing

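The negative median of the SNHG genes (-0.096) kept its direction in all 13 alternatives. It was -0.11 over probe sets without averaging and between -0.13 and -0.068 when 1 array was left out. SNHG genes called lower numbered 1 to 2 when 1 array was left out 2 with the replicate block and 2 with the most variable probe set (SNHG1 and SNHG12 in both). PCGF1 stayed called in its 12 alternatives, at -0.39 to -0.48 when 1 array was left out. SNHG7 was at 0.099 with its most variable probe set and when the _s_at and _x_at probe sets were left out.

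Over all genes 1154 were called higher and 840 lower. These became 596 and 440 with the replicate block and 2120 and 1451 over probe sets without averaging. They were 905 and 569 with the most variable probe set, and 773 and 587 when the _s_at and _x_at probe sets were left out. When 1 array was left out they were 553 to 812 and 395 to 590. Of the 142 genes in the 8 accompanying lists together, 3 were called higher and 17 lower, against 6.36% and 4.63% of all genes. The higher count was 1 with the most variable probe set, 1 when the _s_at and _x_at probe sets were left out, 6 over probe sets without averaging and 1 to 2 when 1 array was left out. The lower count was 10, 11, 25 and 6 to 12 under these settings, and 8 with the replicate block. The block and the omission of an array leave fewer residual degrees of freedom. The cause of these shifts and of the others was not tested.

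Same-numbered arrays share only a number. Their deviations from the group means correlated at -0.042, -0.051 and 0.012 over genes, and 2 of 6 arrays correlated best with their own number, so no pairing was used. A filter on dim probe sets could not be run, and without absolute signal the distance of an SNHG probe set from background is unknown.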

Other observations

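A further 9 probe sets are annotated with an SNHG symbol together with a second gene, in each case a snoRNA, and were used for no gene. Of these, 3 carry SNHG12, and their values were -0.26, -0.19 and -0.080. The probe set shared by SNHG7 and SNORA17B was at -0.13, with every shRNA array below every NC array. SNHG15 and SNHG25, which have no probe set of their own alone, were at 0.0018 and 0.020. The log2 differences of the 9, shRNA minus NC, ranged from -0.26 to 0.020 with a median of -0.084. In 4 of the 9 every shRNA array lay below every NC array, against 13.8% of all probe sets, and in 5 the groups overlapped. Limma called 1 of the 9 lower, the one shared by SNHG12 and SNORA44, against 2.94% of all probe sets.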
